A study of Rattus norvegicus with 18 samples.

Results

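Cdc73, Lrrc8b, Pip5k1a, Inka2, Gda and Ensa are 6 genes picked from rat brain arrays because a probe set of each differed between stressed and handled animals with the same sign in the amygdala, the hippocampus and the cortex. They were picked on the stress minus handled differences of the same 18 arrays described here, so those differences are given as a description, with no test. For Gda and Ensa the shared sign with non-overlapping arrays held for 1 probe set each. The other Gda probe set and the brightest Ensa probe set had the opposite sign in each region, within 1 standard error of 0 in the hippocampus for Gda and in the amygdala for Ensa, and the dimmest Ensa probe set had no common sign. The 6 genes are read by 9 of the 31099 probe sets on the array: Cdc73, Lrrc8b, Pip5k1a and Inka2 by 1 each, Gda by 2 and Ensa by 3. A probe set is a group of short oligonucleotides that together report 1 transcript or part of it. All 9 were bright enough to enter the fit, which kept 18625 probe sets, and by mean intensity they lay between the 76.4th and the 99th percentile of the array. They are 6 of the 14218 genes named on the array.

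The study measured total RNA of rat amygdala, hippocampus and cortex on Affymetrix expression arrays. The 6 groups, with 3 arrays each, were amygdala, hippocampus and cortex after chronic immobilization stress, and amygdala, hippocampus and cortex of rats that were only handled. Strain, sex, age, and the length and schedule of the immobilization are not given in the labels. Nothing in the labels tells if the arrays within a group stem from different animals or if regions share animals, and the p-values below therefore cover only array-to-array spread, which could be technical. One label field names the amygdala for all 18 arrays, and region was taken from each title and description. Of the region markers measured, 6 of 6 for hippocampus, 5 of 6 for amygdala and 3 of 6 for cortex were highest in the region they mark. The exceptions were Cartpt, highest in cortex among the amygdala markers, and Tle4, Rprm and Etv1 among the cortex markers. In such tissue RNA, fewer cells of a type and less transcript per cell cannot be told apart.

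Chronic immobilization is a repeated restraint stress. In rats it is known for shortening dendrites in the hippocampus and lengthening them in the basolateral amygdala. The 6 genes act at separate points of the cell. Cdc73 (parafibromin) is a subunit of the PAF1 complex, which travels with RNA polymerase II and is needed for histone marks of transcribed genes. Lrrc8b is a subunit of the volume-regulated anion channel, which lets chloride and small organic molecules leave swollen cells and needs Lrrc8a to work. Pip5k1a is a lipid kinase that makes the phosphoinositide cleaved by phospholipase C and read by actin regulators. Inka2 is an inhibitor of the p21-activated kinase Pak4, a regulator of the cytoskeleton. Gda is guanine deaminase, also called cypin, which converts guanine to xanthine and in rat hippocampal neurons promotes dendrite branching. Ensa, once phosphorylated by the kinase Mastl, inhibits a form of protein phosphatase PP2A, as does its relative Arpp19.

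Promoter sequences of all 6 genes were found in the RefSeq table for the rat build GRCr8, and 4 are shown: those of the 3 genes higher on stress arrays and, for comparison on the same chromosome as one of them, that of Ensa. The higher genes are Cdc73, Lrrc8b and Pip5k1a. Ensa lies on chromosome 2 like Pip5k1a, with 22 protein-coding genes between them, and its 3 probe sets disagreed on the sign of the stress difference. Inka2 is on chromosome 2 too, 128 protein-coding genes away from Ensa. Each sequence covers 250 bases before to 50 bases after the annotated start of the gene, in the gene's own direction. Capitals mark exact matches, on either strand, to the GC box GGGCGG, the CCAAT box CCAAT, the cAMP response element half-site TGACG, the glucocorticoid half-site AGAACA and the E-box CACGTG.
Cdc73 (chr13:57999929-58000228, minus strand), Lrrc8b (chr14:4721027-4721326, minus strand), Pip5k1a (chr2:185360427-185360726, minus strand) and Ensa (chr2:185874250-185874549, plus strand) read as follows.
Cdc73: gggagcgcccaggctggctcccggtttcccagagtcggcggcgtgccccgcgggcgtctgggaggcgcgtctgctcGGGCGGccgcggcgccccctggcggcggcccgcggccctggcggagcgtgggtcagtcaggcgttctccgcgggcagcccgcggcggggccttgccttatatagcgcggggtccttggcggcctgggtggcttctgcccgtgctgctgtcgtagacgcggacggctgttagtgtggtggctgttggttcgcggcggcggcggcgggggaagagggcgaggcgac
Lrrc8b: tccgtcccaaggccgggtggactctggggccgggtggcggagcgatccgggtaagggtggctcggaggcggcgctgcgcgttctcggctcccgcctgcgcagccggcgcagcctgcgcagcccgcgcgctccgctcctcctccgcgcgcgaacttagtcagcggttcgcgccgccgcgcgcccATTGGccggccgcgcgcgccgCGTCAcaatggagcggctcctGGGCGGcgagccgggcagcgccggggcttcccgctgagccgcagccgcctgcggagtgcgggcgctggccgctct
Pip5k1a: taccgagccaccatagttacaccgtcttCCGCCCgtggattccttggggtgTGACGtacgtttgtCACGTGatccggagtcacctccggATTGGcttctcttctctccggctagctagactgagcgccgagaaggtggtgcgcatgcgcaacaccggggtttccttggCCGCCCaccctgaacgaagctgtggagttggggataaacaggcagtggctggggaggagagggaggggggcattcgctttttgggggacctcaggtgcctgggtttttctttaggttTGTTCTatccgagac
Ensa: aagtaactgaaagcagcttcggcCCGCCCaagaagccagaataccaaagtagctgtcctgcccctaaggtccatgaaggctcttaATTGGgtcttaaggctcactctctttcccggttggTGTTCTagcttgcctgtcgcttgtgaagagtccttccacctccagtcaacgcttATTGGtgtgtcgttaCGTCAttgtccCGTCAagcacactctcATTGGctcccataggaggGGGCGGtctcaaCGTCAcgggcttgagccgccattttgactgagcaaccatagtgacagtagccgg
The GC box was found in 6 of the 6 members' promoters and in 41.8% of the 21842 protein-coding promoters of the table. The CCAAT box was found in 5 of 6, all except Cdc73, and in 38% of the table. The cAMP half-site was found in Lrrc8b, Pip5k1a and Ensa and in 23.5% of the table. The glucocorticoid half-site was found in Pip5k1a and Ensa and in 18.1% of the table. The E-box was found only in Pip5k1a among the 6, and in 7% of the table. The TATA box TATAAA was found in 0 of 6, against 13% of the table. The EGR site GCGTGGG was found only in Cdc73 (5.4% of the table) and the NRF1 core GCGCATGC only in Pip5k1a (3.1%). The GC content was 76.3% in Cdc73, 78.3% in Lrrc8b, 58.3% in Pip5k1a and Inka2, 63.7% in Gda and 53.3% in Ensa, against a median of 55% over the table. The 3 genes higher on stress arrays thus shared the GC box, which is common, and none of the other motifs searched was in all 3.

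Intensities are linear, as deposited, and all arrays share a common trimmed mean. Differences are log2 of the intensity plus 16, stress minus handled, with the standard error from limma. Cdc73 gave 249, 335 and 340 on the 3 stress arrays of the amygdala, against 199, 198 and 199 on the handled arrays. In the hippocampus its values were 231, 272 and 277 on stress arrays, against 163, 183 and 167 on handled arrays. Cortical values were 345, 319 and 334 on stress arrays, against 202, 203 and 209 on handled arrays. The groups did not overlap in any region, and amygdala stress array 1, the lowest of its group, still exceeded the 3 handled arrays. The difference was 0.58 ± 0.10 in amygdala, 0.56 ± 0.10 in hippocampus and 0.66 ± 0.10 in cortex. The mean over regions, 0.60 ± 0.06, ranked 7th highest among the 18625 probe sets. Handled arrays of the amygdala were close together, with an SD of 0.435, while the stress arrays had an SD of 51.1 (n = 3 each).

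Lrrc8b gave 229, 322 and 321 on the stress arrays of the amygdala, against 218, 169 and 174 on handled arrays. In the hippocampus the values were 426, 369 and 402 on stress arrays, against 244, 302 and 274 on handled arrays. In the cortex they were 365, 359 and 347 on stress arrays, against 240, 251 and 245 on handled arrays. Stress arrays again lay above all handled arrays in each region, by the narrowest margin in amygdala, where stress array 1 exceeded handled array 1 by little. The difference was 0.59 ± 0.11 in amygdala, 0.52 ± 0.11 in hippocampus and 0.51 ± 0.11 in cortex, with a mean of 0.54 ± 0.07 that ranked 13th highest. Without amygdala stress array 1 the amygdala difference was 0.74 for Lrrc8b and 0.72 for Cdc73.

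Pip5k1a gave 260, 237 and 231 on the stress arrays of the amygdala, against 225, 158 and 191 on handled arrays. Hippocampal values were 208, 241 and 246 on stress arrays, against 149, 113 and 138 on handled arrays. In the cortex it gave 259, 221 and 235 on stress arrays, against 192, 155 and 145 on handled arrays. No stress array overlapped a handled array of its region. The gap was smallest in amygdala, where the difference was 0.33 ± 0.13, against 0.73 ± 0.13 in hippocampus and 0.50 ± 0.13 in cortex. The mean of 0.52 ± 0.07 ranked 14th highest. Without amygdala handled array 2 the amygdala difference was 0.21.

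Inka2, the inhibitor of Pak4, was lower on stress arrays. It gave 563, 661 and 687 on the stress arrays of the amygdala, against 749, 737 and 850 on handled arrays. In the hippocampus the intensities were 801, 907 and 936 on stress arrays, against 1141, 1138 and 1169 on handled arrays. Its cortical values were 828, 842 and 863 on stress arrays, against 1166, 1248 and 1119 on handled arrays. The groups did not overlap in any region. The difference was -0.28 ± 0.08 in amygdala, -0.38 ± 0.08 in hippocampus and -0.47 ± 0.08 in cortex. The mean of -0.38 ± 0.04 ranked 282nd lowest among the 18625 probe sets.

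**Figure D1:**
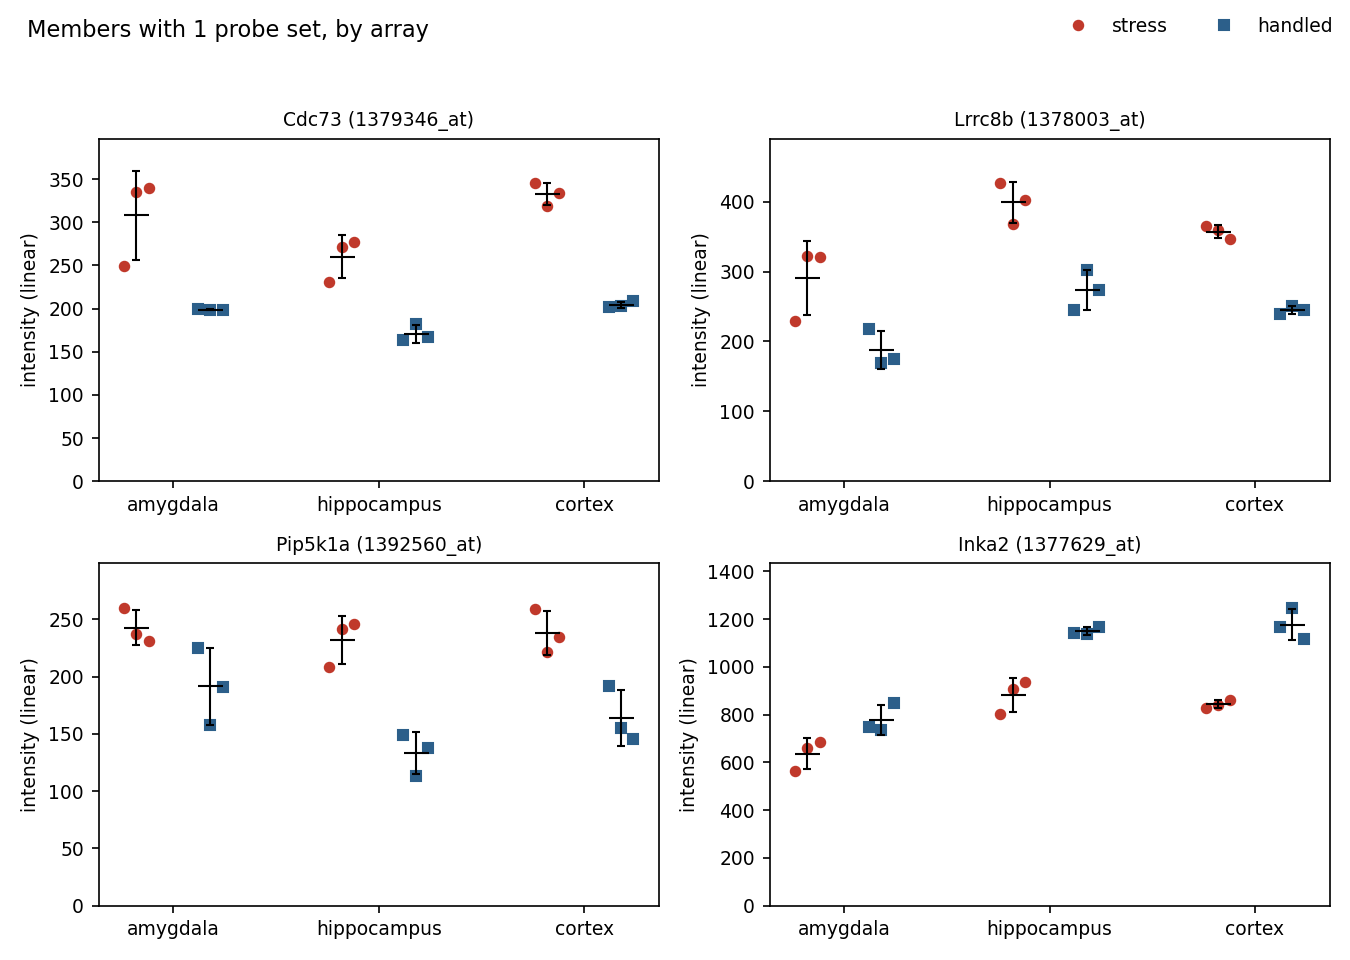
Intensity (vertical axis, linear, as deposited) of the 4 members read by 1 probe set, by region and treatment, with each point an array and the bar the mean ± SD of 3 arrays. Stress arrays of Cdc73, Lrrc8b and Pip5k1a lie above the handled arrays of their region, and those of Inka2 lie below.

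Gda and Ensa are read by several probe sets, which did not move alike. For Gda, probe set 1387659_at gave 2576, 2486 and 2775 on the stress arrays of the amygdala, against 3266, 3350 and 3376 on handled arrays. Its hippocampal values were 1470.5, 1273 and 1453 on stress arrays, against 1824, 1732 and 1761 on handled arrays. Cortical values were 2538, 2829 and 2528 on stress arrays, against 3256, 3183 and 3107 on handled arrays. This probe set was lower on stress arrays without overlap in each region. The difference was -0.35 ± 0.06 in amygdala, -0.34 ± 0.06 in hippocampus and -0.27 ± 0.06 in cortex, with a mean of -0.32 ± 0.03 that ranked 456th lowest.

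The other Gda probe set, 1372011_at, went the other way in amygdala and cortex. It gave 2011, 2064 and 1782 on the stress arrays of the amygdala, against 1660, 1743 and 1731 on handled arrays. In the cortex it gave 1924, 1962 and 1885 on stress arrays, against 1547, 1563 and 1599 on handled arrays. In both regions all stress arrays were above all handled arrays. In the hippocampus its values were 839, 818 and 836 on stress arrays, against 838, 755 and 863 on handled arrays, and the groups overlapped. The difference was 0.19 ± 0.06 in amygdala, 0.02 ± 0.06 in hippocampus and 0.29 ± 0.06 in cortex. The ratio of the 2 probe sets within an array, 1372011_at over 1387659_at on the log2 scale, was therefore shifted. It was -0.42 ± 0.19 on stress and -0.95 ± 0.02 on handled arrays of the amygdala (mean ± SD, n = 3 each). In the hippocampus it was -0.74 ± 0.09 on stress and -1.10 ± 0.08 on handled arrays, and in the cortex -0.45 ± 0.07 on stress and -1.01 ± 0.06 on handled arrays.

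For Ensa, probe set 1389912_at carried the difference of 1 sign. It gave 397, 318 and 356 on the stress arrays of the amygdala, against 559, 555 and 604 on handled arrays. Hippocampal values were 389, 297 and 350 on stress arrays, against 512, 461 and 443 on handled arrays. Its cortical values were 351, 394 and 347 on stress arrays, against 517, 483 and 476 on handled arrays. All stress arrays were below all handled arrays of their region. The difference was -0.66 ± 0.09 in amygdala, -0.44 ± 0.09 in hippocampus and -0.42 ± 0.09 in cortex, with a mean of -0.51 ± 0.05 that ranked 83rd lowest.

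The other Ensa probe sets did not follow. Probe set 1369702_at gave 804, 825 and 900 on the stress arrays of the cortex, against 658, 723 and 653 on handled arrays, with no overlap. Its groups overlapped in amygdala (556, 705 and 668 on stress arrays, against 600, 561 and 691 on handled arrays). They overlapped in hippocampus too, with 712, 616 and 698 on stress arrays, against 529, 678 and 652 on handled arrays. Its difference was 0.06 ± 0.10 in amygdala, 0.13 ± 0.10 in hippocampus and 0.31 ± 0.10 in cortex. Probe set 1398898_at overlapped in all 3 regions, with differences of 0.21 ± 0.13, -0.03 ± 0.13 and -0.10 ± 0.13 in amygdala, hippocampus and cortex. The log2 ratio of 1369702_at over 1389912_at averaged 0.82 ± 0.32 on stress and 0.10 ± 0.09 on handled arrays of the amygdala (SD, n = 3 each). In the hippocampus it was 0.94 ± 0.09 on stress and 0.38 ± 0.29 on handled arrays, and in the cortex 1.18 ± 0.15 on stress and 0.45 ± 0.12 on handled arrays. Which part of the transcript each probe set reads was not known here, and no probe set was chosen to stand for its gene in this description.

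**Figure D2:**
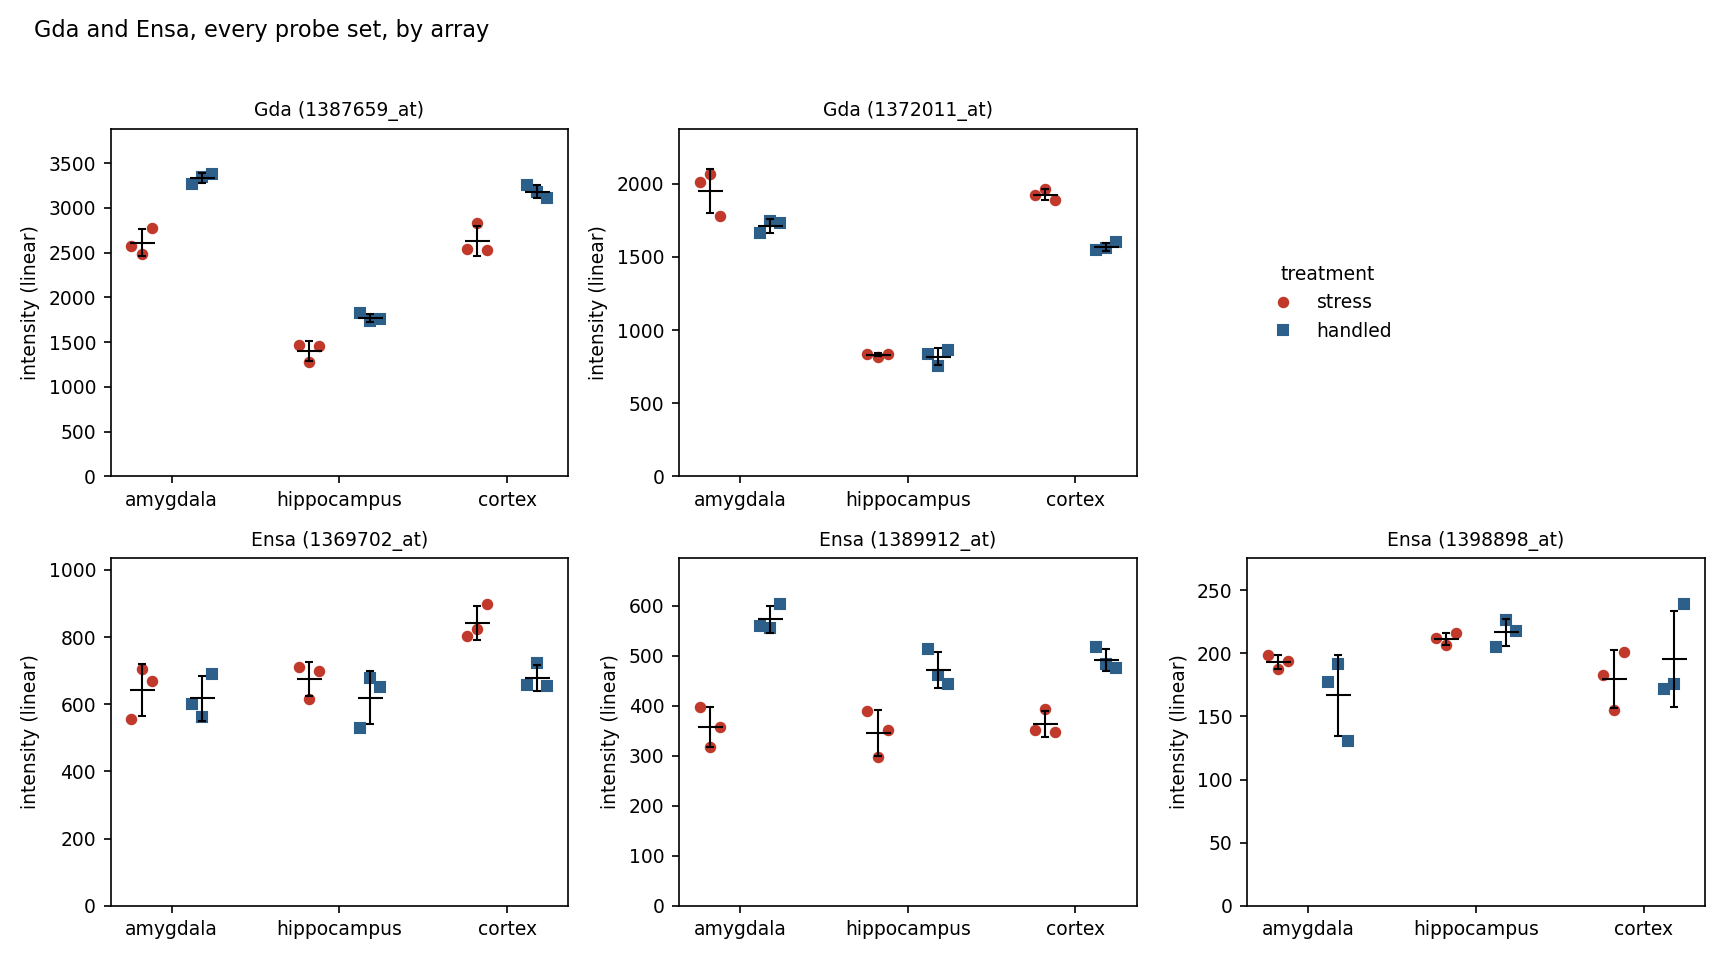
Intensity (vertical axis, linear, as deposited) of the 2 Gda and 3 Ensa probe sets by region and treatment, with each point an array and the bar the mean ± SD of 3 arrays. Gda 1387659_at and Ensa 1389912_at are lower on stress arrays in all 3 regions, while the other probe sets of both genes are not.

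In 6 of the 9 member probe sets the stress and handled arrays did not overlap in any of the 3 regions, 3 lying above and 3 below. Over the whole fit, 66 of 18625 probe sets (0.354%) lay above in all 3 regions and 137 (0.736%) below. Because this pattern is what the genes were picked on, nothing is read from that count. Among the 136 genes with such a probe set, 76 had another probe set in the fit that was not apart in all 3 regions. In 34 of these (44.7%) at least 1 other probe set had the opposite sign, Gda and Ensa included. Counted by probe set, 44 of 140 others (31.4%) had it. Sign here is that of the mean difference over regions, however near 0.

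**Figure D3:**
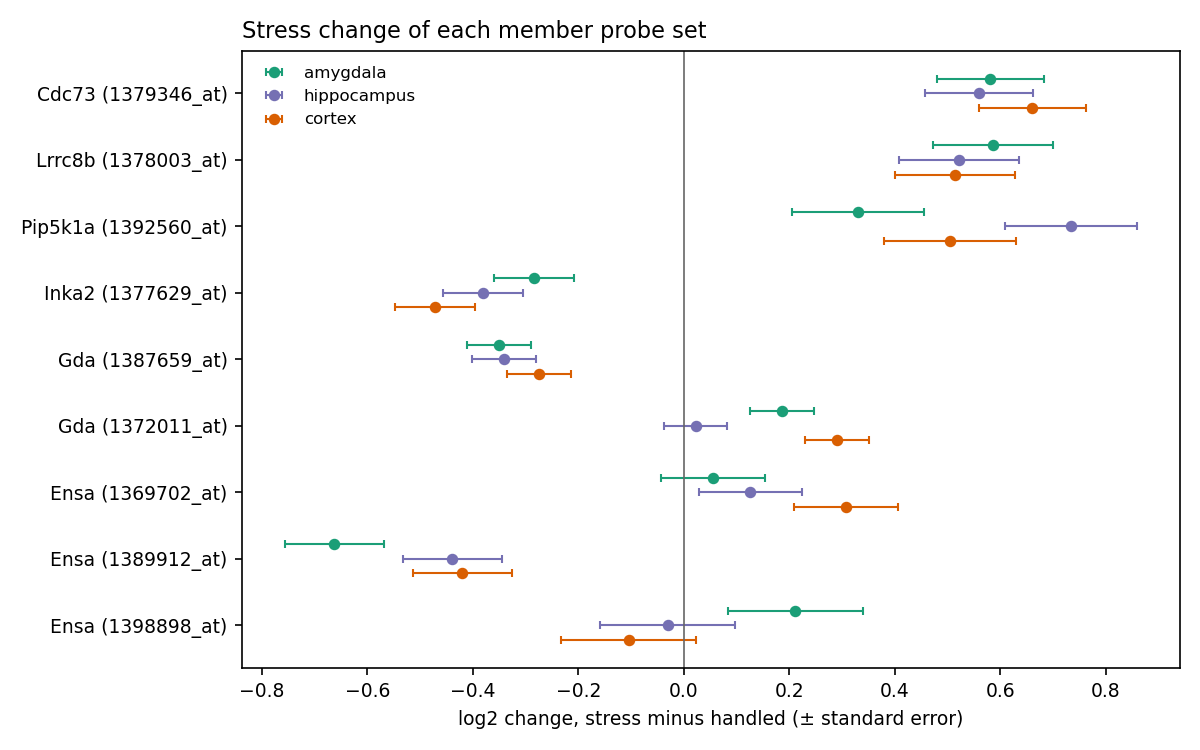
Log2 difference, stress minus handled (horizontal axis, of intensity plus 16), of the 9 member probe sets in each region, with points the estimate and bars ± 1 standard error from limma. Cdc73, Lrrc8b and Pip5k1a lie right of 0 in all regions, Inka2, Gda 1387659_at and Ensa 1389912_at lie left of it, and the other Gda and Ensa probe sets differ from these in sign or lie near 0.

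The level of the members between regions was not used in picking them, and was tested with limma on the mean of stress and handled arrays. The picking may still have favoured probe sets with a small spread within groups. That spread also enters the region tests, so their p-values and counts are not fully free of the picking. Between amygdala and cortex, limma called 28.6% of all probe sets, between hippocampus and cortex 37.0%, and between amygdala and hippocampus 40%. Members passed in 3, 4 and 7 of 9 probe sets. Their share was near the background between amygdala and cortex and between hippocampus and cortex. The 7 between amygdala and hippocampus include both Gda probe sets. They also include calls of Cdc73, Pip5k1a and Ensa 1398898_at that some alternative settings lost. The background was not matched to the members' brightness, and nothing is read from the count. Adjusted p-values below are from limma with Benjamini-Hochberg adjustment over 18625 probe sets.

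Gda was the member with the clearest region pattern, with the lowest level in hippocampus. Probe set 1387659_at ran from 2486 to 3376 on the 6 arrays of the amygdala (median 3020), from 1273 to 1824 in hippocampus (median 1601) and from 2528 to 3256 in cortex (median 2968). Amygdala minus hippocampus was 0.90 ± 0.04 (adjusted p = 3.78e-14) and hippocampus minus cortex -0.87 ± 0.04 (adjusted p = 6.47e-14). Probe set 1372011_at ran from 1660 to 2064 in amygdala (median 1762), from 755 to 863 in hippocampus (median 837) and from 1547 to 1962 in cortex (median 1742). Its amygdala minus hippocampus difference was 1.13 ± 0.04 (adjusted p = 6.08e-16) and hippocampus minus cortex -1.06 ± 0.04 (adjusted p = 1.81e-15). Amygdala and cortex were not separated by the test on either probe set (adjusted p = 0.669 and 0.225). The 2 Gda probe sets, which had opposite signs under stress in amygdala and cortex, thus had the same order of regions.

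Inka2 had its lowest level in amygdala. It ran from 563 to 850 there (median 712), from 801 to 1169 in hippocampus (median 1037) and from 828 to 1248 in cortex (median 991). Amygdala minus hippocampus was -0.51 ± 0.05 (adjusted p = 5.3e-08) and amygdala minus cortex -0.50 ± 0.05 (adjusted p = 2.38e-07). Hippocampus and cortex were not separated by the test (adjusted p = 0.89). Lrrc8b was likewise lowest in amygdala, from 169 to 322 (median 224), against 244 to 426 in hippocampus (median 335) and 240 to 365 in cortex (median 299). Amygdala minus hippocampus was -0.48 ± 0.08 (adjusted p = 3.85e-05) and amygdala minus cortex -0.33 ± 0.08 (adjusted p = 0.00315), and hippocampus and cortex were not separated (adjusted p = 0.162).

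Cdc73 ran from 198 to 340 in amygdala (median 224), from 163 to 277 in hippocampus (median 207) and from 202 to 345 in cortex (median 264). Hippocampus minus cortex was -0.29 ± 0.07 (adjusted p = 0.00245) and amygdala minus hippocampus 0.21 ± 0.07 (adjusted p = 0.0222), while amygdala and cortex were not separated (adjusted p = 0.446). Pip5k1a differed only between amygdala and hippocampus, at 0.27 ± 0.09 (adjusted p = 0.0192), with medians of 228 in amygdala, 179 in hippocampus and 207 in cortex. Centring each array on its median ended the amygdala minus hippocampus calls of Cdc73 (adjusted p = 0.156) and Pip5k1a (adjusted p = 0.0848). Cdc73 also lost it without amygdala stress array 2 or 3 or hippocampus stress array 1 (adjusted p = 0.0638, 0.0676 and 0.0711). Pip5k1a lost it without hippocampus stress array 1, amygdala handled array 1 or hippocampus handled array 2 (adjusted p = 0.056, 0.0702 and 0.0616).

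Of the Ensa probe sets, 1369702_at was highest in cortex, from 653 to 900 (median 764), against 556 to 705 in amygdala (median 634) and 529 to 712 in hippocampus (median 665). Amygdala minus cortex was -0.26 ± 0.07 (adjusted p = 0.00632) and hippocampus minus cortex -0.22 ± 0.07 (adjusted p = 0.0132, or 0.0501 without hippocampus handled array 1). Probe set 1398898_at passed only between amygdala and hippocampus (-0.24 ± 0.09, adjusted p = 0.0368), a call that was lost in 9 of 26 alternative settings. The stress-lower probe set 1389912_at passed in no pair of regions, with adjusted p-values of 0.323, 0.456 and 0.0576.

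**Figure D4:**
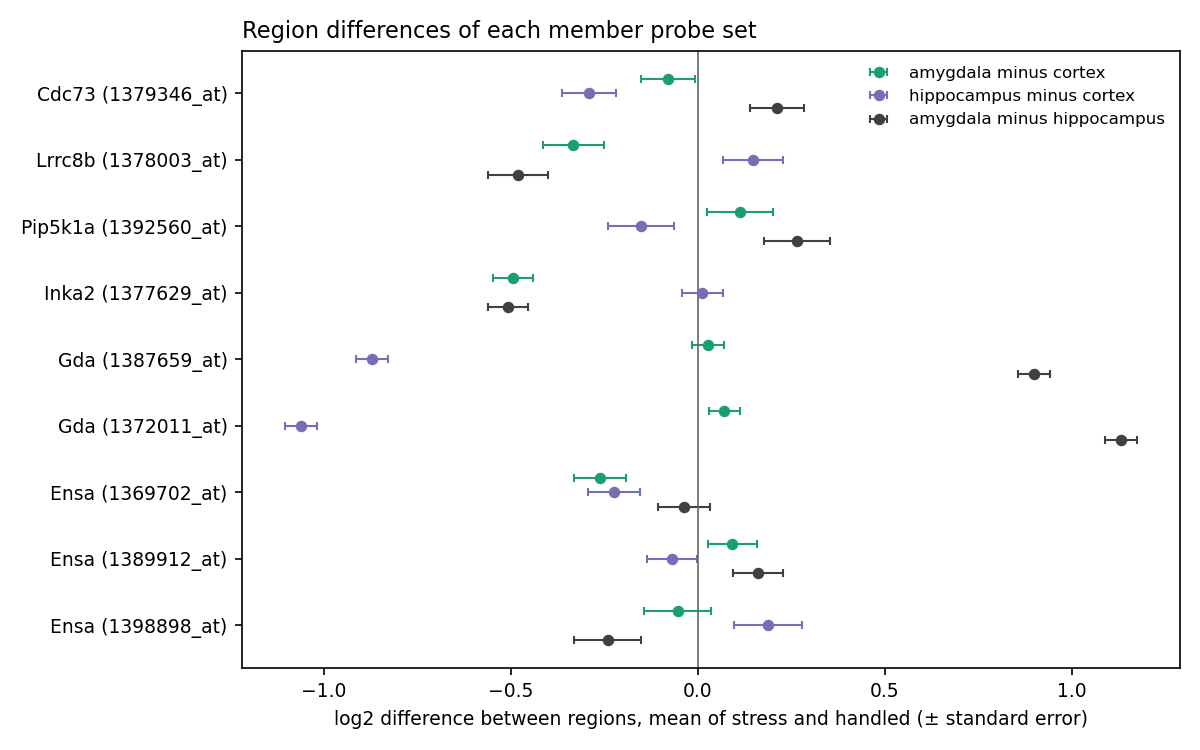
Log2 difference between regions (horizontal axis, of intensity plus 16), averaged over stress and handled arrays, of the 9 member probe sets, with points the estimate and bars ± 1 standard error from limma. Both Gda probe sets are low in hippocampus, and Inka2 and Lrrc8b are low in amygdala.

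Partner genes of each member were taken from lists of the member's complex or pathway, 51 of them measured. In the mean over regions 6 of the 51 were called by limma, 2 higher and 4 lower on stress arrays, against 457 of 10267 named genes (4.45%). By region 1 was called in amygdala (198 of 10267 genes, 1.93%), 1 in hippocampus (41 genes, 0.399%) and 0 in cortex (43 genes, 0.419%). The hippocampal call was Arpp21, which was also 1 of the 6. Arpp21 was listed beside Arpp19 and is not an established partner of Ensa. The median log2 difference of the 51 was -0.000138 in the mean of regions, against 0.00831 over all named genes.

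Of the other PAF1 complex subunits, none of 5 was called; the largest were Skic8 (0.05 ± 0.05, adjusted p = 0.594) and Paf1 (0.05 ± 0.07, adjusted p = 0.753), and the list's median was 0.0237. Of the 3 other channel subunits measured, Lrrc8a, the obligatory one, was lower, at 681 ± 65.4 on stress and 795 ± 33.3 on handled arrays of the amygdala (SD, n = 3 each), with a mean difference of -0.20 ± 0.05 (adjusted p = 0.0201). Lrrc8a was called in no region alone, and its stress and handled arrays overlapped in the hippocampus. Lrrc8d, another subunit, was higher in the mean of regions, by 0.19 ± 0.05 (adjusted p = 0.0328), and was called in no region alone. Its difference was 0.13 ± 0.09 in amygdala, 0.35 ± 0.09 in hippocampus and 0.07 ± 0.09 in cortex. In the hippocampus, where it was largest, Lrrc8d averaged 538 ± 36.4 on stress and 417 ± 13.6 on handled arrays (SD, n = 3 each), and in the cortex stress array 1 (201) lay below all handled arrays (210 to 219). The median of the 3 was 0.0484. The other 2 probe sets of Lrrc8a had mean differences of 0.09 and -0.17. Of 26 alternative settings, 3 ended the call of Lrrc8a, among them leaving out cortex handled array 3 (adjusted p = 0.0531), and 10 ended that of Lrrc8d (adjusted p up to 0.0878).

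Of 8 measured genes of the p21-activated kinase list, 1 passed, and the list's median was -0.0852. Pak3, a kinase of the family, was lower: 585, 605 and 754 on the stress arrays of the amygdala, against 1036, 1021 and 1159 on handled arrays. The mean difference over regions was -0.40 ± 0.06 (adjusted p = 0.000451), and in the amygdala alone -0.72 ± 0.11 (adjusted p = 0.000657). The other 2 Pak3 probe sets went the other way, with mean differences of 0.13 and 0.11. Pak4, the kinase that Inka2 inhibits, had a mean difference of -0.16 ± 0.10 that was not called (adjusted p = 0.447). Of 10 genes of purine salvage and breakdown 0 passed, with a median of 0.000589, and the largest differences were those of Xdh, xanthine dehydrogenase (0.26 ± 0.10, adjusted p = 0.168), and Ampd2 (-0.13 ± 0.06, adjusted p = 0.281).

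Of 10 measured genes of the ENSA, ARPP19 and PP2A list, 2 passed, and the median was 0.0266. Arpp19, the relative of Ensa, was lower, at 749 ± 13.0 on stress and 824 ± 16.3 on handled arrays of the cortex (SD, n = 3 each), with a mean difference of -0.18 ± 0.05 (adjusted p = 0.0235) and mean differences of -0.19 and -0.07 on its other 2 probe sets. Arpp19 was called in no region alone, and its stress and handled arrays overlapped in the amygdala. Arpp21, a cAMP-regulated phosphoprotein that is not one of the PP2A inhibitors named above, was higher. It was at 1625 ± 68.4 on stress and 1445 ± 35.8 on handled arrays of the amygdala, with a mean difference of 0.21 ± 0.04 (adjusted p = 0.00142). The other 2 Arpp21 probe sets had mean differences of 0.004 and 0.03. The hippocampal difference of the probe set that passed, 0.30 ± 0.07 (adjusted p = 0.0439), was lost in 19 of 26 alternative settings, and the mean difference of Arpp19 in 5, among them leaving out amygdala handled array 1 or 3 or cortex stress array 3 (adjusted p = 0.0561, 0.0507 and 0.053). Of 15 phosphoinositide kinases and phosphatases, 1 passed: Pi4k2a, which makes the precursor of the lipid that Pip5k1a makes, was lower with a mean difference of -0.30 ± 0.08 (adjusted p = 0.0328). It was at 74.2 ± 5.39 on stress and 96.7 ± 8.24 on handled arrays of the amygdala, and its call was lost in 11 of 26 alternative settings (adjusted p up to 0.0718). Pi4k2a was called in no region alone, and its stress and handled arrays overlapped in the hippocampus. The list's median was -0.0132. Differences between regions in the stress response of these genes were not called by limma, with a lowest adjusted p of 0.277 for Pak3 between amygdala and cortex.

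**Figure D5:**
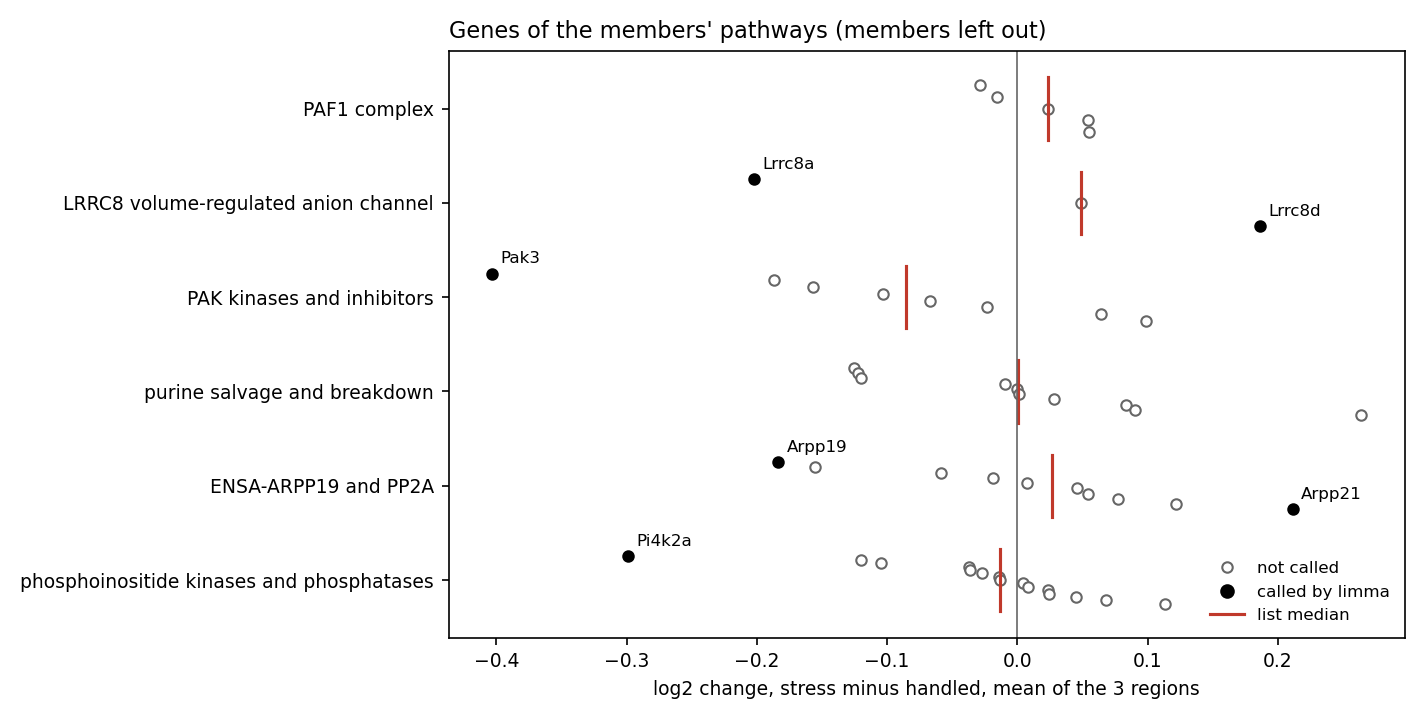
Mean log2 difference over regions, stress minus handled (horizontal axis, of intensity plus 16), of the measured genes of each pathway list, with filled points called by limma at an adjusted p of 0.05 and the red line the median of the list. The called genes are Lrrc8a, Pak3, Arpp19 and Pi4k2a below 0 and Lrrc8d and Arpp21 above it.

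The genes whose arrays followed each member most closely were found by Pearson r over the 18 arrays after subtracting each region's mean, among 10261 genes, as a description with no p. Since both treatments enter, a shared stress difference raises r. Cdc73 was followed by Zcchc7 (r = 0.908), Ddhd2 (r = 0.907) and Dbp (r = 0.901), Dbp being a transcription factor under the circadian clock. Lrrc8b was followed by Armcx3 (r = 0.943), Rnase4 (r = 0.934) and Rnf141 (r = 0.878). Pip5k1a was followed by Scn2b (r = 0.888), a sodium channel subunit, Srp72 (r = 0.855) and Nr1d2 (r = 0.851), a nuclear receptor of the clock. Inka2 was followed by Sema6a (r = 0.887), Syt12 (r = 0.884) and Bmp3 (r = 0.875). Gda 1387659_at was followed by Snx27 (r = 0.948), Dlgap4 (r = 0.945) and Fbxo15 (r = 0.933). Ensa 1369702_at was followed by Zbtb11 (r = 0.881), Dnajb9 (r = 0.862) and Lratd1 (r = 0.856). Its probe set 1389912_at, looked at after the values were seen, was followed by Tmod2 (r = 0.955), Myo5a (r = 0.941) and Snx27 (r = 0.934). Snx27, a sorting nexin, was among the nearest to the lower probe sets of both Gda and Ensa. Its differences were -0.43, -0.41 and -0.33 in amygdala, hippocampus and cortex, stress minus handled. Since both probe sets were lower on stress arrays in all regions, a gene lower there too ranks high for both, and nothing further is read from it.

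Other measures also differed between stress and handled arrays, and their part in the members' differences was not tested. The 3′ minus 5′ log2 signal of hexokinase probes, a sign of RNA length, was 1.23 ± 0.07 on stress and 0.83 ± 0.08 on handled arrays of the amygdala (SD, n = 3 each), without overlap. In hippocampus it was 1.17 ± 0.15 on stress and 1.02 ± 0.11 on handled arrays, and in cortex 1.28 ± 0.12 on stress and 1.11 ± 0.09 on handled arrays, with overlap in both. The summed intensity of 6 erythrocyte genes, most of it from Hbb, was 1686 to 1983 on stress and 2225 to 2594 on handled arrays of the amygdala. It was 1201 to 1458 on stress and 2164 to 2386 on handled arrays of the hippocampus, and 2122 to 2261 on stress and 3466 to 3641 on handled arrays of the cortex. The 3 erythrocyte genes bright enough for the fit were all called lower in the mean of regions. Hbe1, Slc4a1 and Epb42 were too dim for the fit, and each averaged higher on stress arrays in some region. The beta-actin measure was 2.15 ± 0.24 on stress and 2.07 ± 0.08 on handled arrays of the amygdala. It was 1.61 ± 0.31 and 1.54 ± 0.23 in the hippocampus, and 1.61 ± 0.04 and 1.66 ± 0.05 in the cortex. The GAPDH measure was 0.45 ± 0.08 on stress and 0.45 ± 0.04 on handled arrays of the amygdala. It was 0.23 ± 0.13 and 0.26 ± 0.10 in the hippocampus, and 0.24 ± 0.04 and 0.29 ± 0.04 in the cortex. For both, stress and handled arrays overlapped in every region, unlike hexokinase in the amygdala. Choroid plexus genes summed to 3544 to 3770 on stress and 1240 to 1370 on handled arrays of the hippocampus, where Ttr (1.62 ± 0.14) and Sostdc1 (0.92 ± 0.19) were called higher, and Folr1 (0.20 ± 0.21) and Aqp1 (-0.58 ± 0.32) were not called. In the amygdala they summed to 829 to 906 on stress and 649 to 676 on handled arrays, and in the cortex to 134 to 176 on stress and 182 to 212 on handled arrays. Oligodendrocyte genes summed to 16295 to 18648 on stress and 19118 to 21563 on handled arrays of the hippocampus. Meningeal genes summed to 530 to 594 on stress and 1384 to 1429 on handled arrays of the cortex. Striatal neuron genes summed to 2164 to 2552 on stress and 1778 to 1906 on handled arrays of the amygdala. In the cortex the sum went the other way (1117 to 1141 on stress, 1212.5 to 1305 on handled arrays). By gene, 3 of the 7 had a difference above 0 there and 4 below, and none was called. In the hippocampus the sums overlapped. Endothelium genes summed to 877 to 932 on stress and 980 to 1022 on handled arrays of the hippocampus. In the cortex they summed to 1014 to 1040 on stress and 1145 to 1232 on handled arrays. Cortex markers summed to 2905 to 3179 on stress and 3270 to 3426 on handled arrays of the amygdala, with 3 of 6 genes above 0. In the cortex they summed to 2929 to 2982 on stress and 3248 to 3525 on handled arrays, with all 6 genes below 0 and none called. Amygdala markers summed to 4152 to 4501 on stress and 3806 to 3928 on handled arrays of the amygdala, with 3 of 6 genes above 0. In the hippocampus the sums of both lists overlapped. Not every list and region is given here.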

How the data were processed

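The 18 arrays were grouped by region and treatment from their titles and descriptions, giving 6 groups of 3. The deposited values are linear intensities, 1 per probe set and array, and the values show that the authors scaled every array to a common mean after trimming 2% from each tail; the labels and the file do not name the software. The number of arrays limits the precision. Symbols came from the platform annotation updated through the RefSeq gene table for GRCr8. Of 31099 probe sets, 20832 had 1 symbol, 436 several and 9831 none, and the 57 control probe sets were left out.

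Values were analysed as log2(intensity + 16). Probe sets at or above the 40th percentile of mean intensity were kept (18625, with 10267 named genes). A model with 1 mean per group was fitted in limma 3.58.1 (R 4.3.3), all 18 arrays entering, with a variance trend and 12 residual degrees of freedom. All tests were two-sided; p-values were adjusted by Benjamini-Hochberg over all probe sets kept, at a threshold of 0.05. In pathway lists the brightest probe set stood for its gene. The code was tested on simulated data.

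The members, the lists and the tests were chosen with earlier results of these data known. The text names all probe sets of the 6 members, the list genes that passed in a stress contrast or, where none did, the 2 of largest difference, and for each member the 3 genes of highest correlation. Alternatives tried were other offsets, normalizations and filters, no variance trend, fewer arrays, each array left out, the replicate block, and the other probe sets of a gene. No 2 arrays held identical values.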

Additional observations from a re-analysis of the deposited data

How the results depend on the processing

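Of 512 recomputed stress differences of the members, 502 stayed within their replicate spread, 9 moved further and 1 reversed. The 9 were the amygdala differences of Cdc73 and Lrrc8b without amygdala stress array 1, and Gda and Ensa values averaged over all probe sets of the gene. A change of sign was counted as reversed only where the main difference passed the limma threshold, and otherwise by its size alone. Other values therefore changed sign without being counted as reversed, such as the mean of Ensa 1398898_at (-0.024 to 0.073). The mean over regions kept its sign in every setting for the 6 probe sets apart in all regions (Cdc73 0.51 to 0.65, Lrrc8b 0.46 to 0.59, Pip5k1a 0.42 to 0.57, Inka2 -0.40 to -0.35, Gda 1387659_at -0.34 to -0.30, Ensa 1389912_at -0.54 to -0.46). With groups apart in every region, another offset or an array left out could not change that sign. The differences recomputed here are those the genes were picked on, and nothing is read from how well they held. Averaging all probe sets of a gene gave a mean of -0.11 for Ensa, against 0.16 for its brightest probe set, and -0.078 for Gda, with Gda in cortex reversed to 0.0081 (-0.27 by its brightest). In those genes the probe sets disagree. The pathway genes called in the hippocampus went to 0, against 1, with an offset of 64, quantile normalization, the replicate block, no filter, no variance trend, and the arrays of the region alone, and to between 0 and 1 when an array was left out. In the mean of regions, 3 genes were called without a variance trend, and 3 to 7 when an array was left out, against 6. The cause was not tested. Settings run on the dimmer Gda and Ensa probe sets, the named list genes and the region calls were added after seeing the data. Deviations from the group mean were compared between arrays of the same number. Their r ran from -0.0327 to 0.00904 over 9 pairs in a region and -0.0441 to 0.0987 over 36 pairs across regions. For arrays of different number it ran from -0.0446 to 0.0453 over 18 pairs in a region and -0.142 to 0.109 over 72 pairs across regions. With 3 arrays per group these values cannot tell if arrays of the same number share an animal. The replicate block moved no other count by over 1.5 times (members called between amygdala and hippocampus were 8, against 7).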
